A study of Mus musculus with 6 samples.

Results

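AP-1 and immediate early genes were examined through 10 genes in mPAC L20, a cell line from mouse pancreatic duct: Fos, Fosb, Fosl1, Jun, Junb, Atf3, Egr1, Maff, Ier3 and Ier5. The genes were picked by name, with earlier results of these data known, and every probe set of the array annotated with exactly 1 of these symbols was taken. All 10 were measured, by 14 probe sets, out of 18193 genes and 45037 probe sets in all. A gene is represented by its brightest probe set, judged by the mean signal of the 6 arrays, and the other probe sets are given beside it.

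The 6 arrays form 2 groups of 3. In shControl the cells received an adenovirus with a scrambled hairpin, and in shAtoh8 an adenovirus with a hairpin directed at Atoh8, which encodes a transcription factor of the basic helix-loop-helix class. Both groups then received the adenovirus Ad.CMV.Neurog3, in which the CMV promoter drives Neurog3, the gene whose product sets pancreatic progenitors on the endocrine path. No array lacked Neurog3 or the viruses, the labels name a single hairpin against Atoh8, and the scrambled virus came from another laboratory. The multiplicity of infection was 40 per virus, and culture went on for 44 to 46 h after infection, in medium with fetal bovine serum. When the medium was last changed before harvest is not given in the sources used here. Replicates 1, 2 and 3 were independent experiments, per the labels.

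AP-1 is a family of dimeric transcription factors built from leucine zipper proteins. FOS proteins bind DNA as partners of JUN proteins, JUN proteins can also pair with each other, and ATF3 joins them as a further partner. Immediate early genes are switched on by growth factors, serum and stress without new protein synthesis, largely through the MAP kinases, the serum response factor with its Ets partners, and CREB-type factors, and many of their transcripts are short-lived. In pancreatic epithelium, AP-1 and EGR1 are known as early responders to injury and growth signals.

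RefSeq promoter windows (GRCm38.p6, 250 bases before to 50 after each annotated start) were at hand for 8 of the 10 genes, in 10 windows, 3 of them for Maff. Fosl1 and Egr1 had no entry. The 150 bases before the start are shown for Fos, Maff and Ier3, 3 genes that read lower in every shAtoh8 array, for Atf3, which shares a short motif with Fos and Maff, and for Ier5, which read higher on its brightest probe set. They run 5′ to 3′ on the gene's strand and end at the base before the start. Capitals mark TGACGT on either strand, the core of the element bound by CREB and ATF factors, and CANNTG, the E-box that basic helix-loop-helix factors such as ATOH8 and NEUROG3 bind as a class. Fos lies at chr12:85473740-85473889 on the plus strand, the second window of Maff at chr15:79347370-79347519 on the plus strand, Ier3 at chr17:35821563-35821712 on the plus strand, Atf3 at chr1:191183334-191183483 on the minus strand and Ier5 at chr1:155099637-155099786 on the minus strand.
Fos: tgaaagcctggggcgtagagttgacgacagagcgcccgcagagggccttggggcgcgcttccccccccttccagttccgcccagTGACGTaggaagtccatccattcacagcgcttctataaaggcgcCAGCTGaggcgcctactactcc
Maff: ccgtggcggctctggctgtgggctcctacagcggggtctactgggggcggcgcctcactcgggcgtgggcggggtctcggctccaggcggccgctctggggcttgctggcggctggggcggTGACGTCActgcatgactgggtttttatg
Atf3: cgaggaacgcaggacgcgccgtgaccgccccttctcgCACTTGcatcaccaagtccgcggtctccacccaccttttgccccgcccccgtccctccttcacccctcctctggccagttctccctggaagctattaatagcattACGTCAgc
Ier3: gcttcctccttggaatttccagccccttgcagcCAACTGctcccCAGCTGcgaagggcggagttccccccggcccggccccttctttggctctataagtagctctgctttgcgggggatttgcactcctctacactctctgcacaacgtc
Ier5: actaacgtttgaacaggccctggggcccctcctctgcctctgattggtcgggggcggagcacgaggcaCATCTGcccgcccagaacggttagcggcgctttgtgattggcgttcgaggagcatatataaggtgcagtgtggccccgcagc

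TGACGT, read on both strands over the full windows, was found in 3 of the 10 windows, and in 7.51% of all 32851 windows. The 3 are those of Fos and Atf3 and, of the 3 Maff windows, the second alone. Its first base lies 66 (Fos), 8 (Atf3) and 29 (Maff) bases before the start. In Maff it is part of the full palindrome TGACGTCA, present in 1.79% of windows, with both strands matching at the same place. The same Maff window holds GCGTGGGCG, the site read by EGR proteins, which 0.612% of windows hold. CANNTG was found in all 10 windows of the 8 genes, and in 72.3% of all windows. The AP-1 element TGACTCA (5.20% of all windows) and the CArG box of the serum response factor (1.63%) were in none of the 10 windows, which says only that these letters are not in this stretch. TATAAA, in 13.6% of all windows, was found for Fos and Junb. Its first base lies at position -33 from the start in Fos and at position 1, the start itself, in Junb. These matches are letters in a reference sequence, and binding was not measured.

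Whether the Atoh8 hairpin changes these genes is the comparison of shAtoh8 with shControl. Egr1, Maff, Fos and Ier3 read 1.61- to 2.72-fold lower with the Atoh8 hairpin, and Ier5 read 1.29-fold higher on its brightest probe set, each without overlap between the groups. The other probe sets of Ier5 had log2 fold changes of 0.035 and 0.063. Fosb, which was dim, was lower with its groups 0.019 apart in log2 signal. Of all genes, 11.4% were lower without overlap and 12.6% higher. Fosl1, Junb and Atf3 had lower means too, but their groups overlapped. Jun, the main partner of FOS proteins, differed by less than the spread between replicates. In the fit that treats the arrays as unpaired, none of the 10 passed an adjusted p of 0.05 (0 by limma, against 6 at an unadjusted p under 0.05, 5 lower and 1 higher), while 1.15% of all genes passed it and 17.5% had an unadjusted p under 0.05 (8.82% lower and 8.72% higher). Of all genes 0.638% were called lower and 0.517% higher. At an adjusted p under 0.1, 5 of the 10 passed, Egr1, Maff, Fos and Ier3 lower and Ier5 higher, as did 3.80% of all genes (2.08% lower and 1.72% higher).

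The replicate numbers were taken to pair the arrays, since arrays of the same number deviated together over all probe sets. The correlations were 0.407, 0.187 and 0.433 for replicates 1, 2 and 3, so replicate 2 gave the weakest sign of it. Deviations from a group mean cancel within the group, so the lower values between unlike numbers are no separate evidence. The pairing was read from the same arrays as the calls and remains an assumption of the block fit. With the number as a block in the fit, Fos, Maff, Ier3 and Fosl1 passed, all 4 lower, while 4.67% of all genes passed (2.75% lower and 1.92% higher). The genes had been proposed with earlier results of these data known, so these 4 of 10 are no independent sign of the group's direction. Fold changes below are log2 differences, shAtoh8 minus shControl, with limma's SE from the fit without the block. Adjusted p-values are limma's, over all 45037 probe sets.

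**Figure D1:**
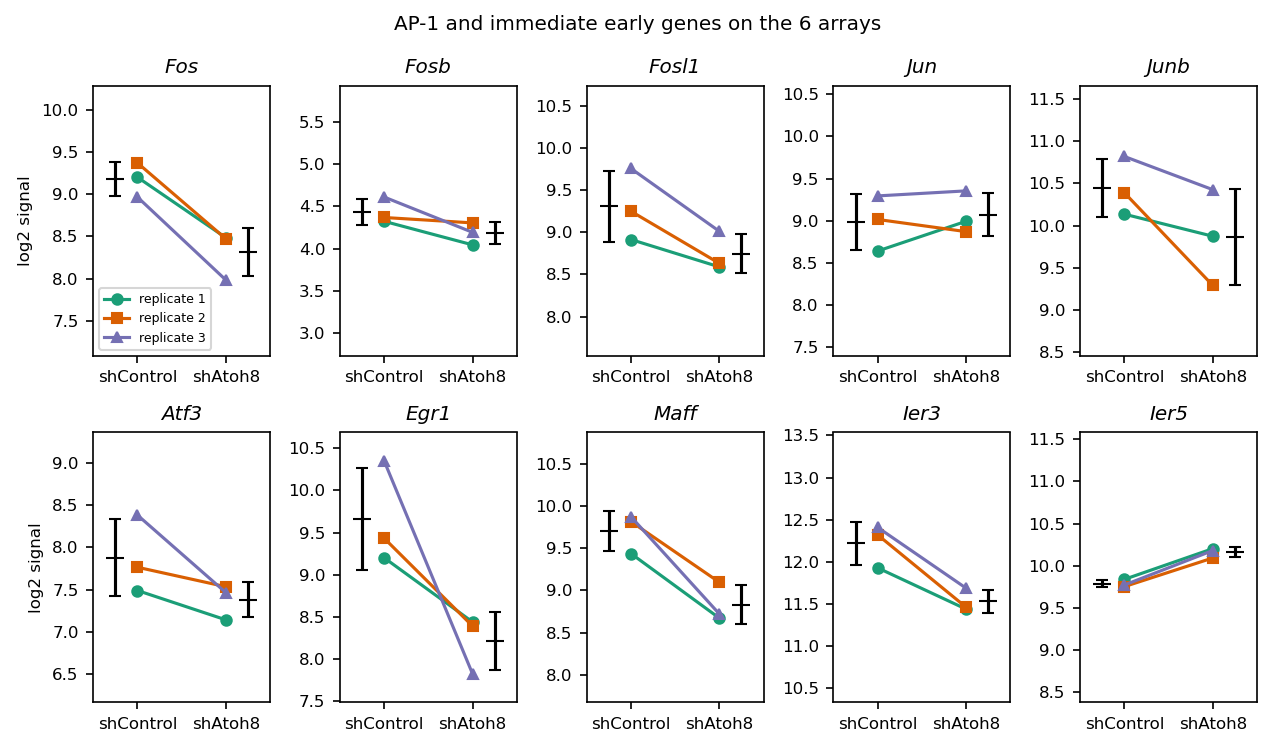
Log2 signal (vertical axis, with the same span in each panel) of the brightest probe set of each gene in shControl and shAtoh8. Coloured lines join arrays of the same replicate number, and black bars give the group mean ± SD (n = 3). In 8 of the 10 panels all 3 lines go down, in that of Ier5 all 3 go up, and in that of Jun they go both ways.

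Among the FOS proteins, Fos, the founding member and partner of JUN, had the clearest separation. The control arrays of replicates 1, 2 and 3 read 9.20, 9.37 and 8.97 (log2 signal), and the shAtoh8 arrays 8.48, 8.47 and 7.98. The lowest control array lay 0.48 above the highest shAtoh8 array, and replicate 3 was the lowest array of each group. Group means of 9.18 ± 0.20 and 8.31 ± 0.29 (SD, n = 3) gave a log2 fold change of -0.87 ± 0.17 (SE), which is 1.82-fold lower. The limma adjusted p was 0.0711, and 0.0189 with the replicate block, where the SE was 0.090. Within replicates 1, 2 and 3 the difference was -0.72, -0.90 and -0.98. Of all 18193 genes, 207 had a more negative fold change.

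Fosl1, which encodes FRA-1, a FOS protein known for slower and longer expression after stimulation, differed more between replicate numbers than Fos did. Its signals were 8.91, 9.25 and 9.76 in shControl and 8.59, 8.63 and 9.01 in shAtoh8. The groups overlapped, since shAtoh8 replicate 3 lay above shControl replicate 1, yet each shAtoh8 array was below the control of its own number, by -0.32, -0.62 and -0.75. The log2 fold change was -0.56 ± 0.22 (SE), with a limma adjusted p of 0.310 and of 0.0490 with the block, just inside the threshold. The other probe set of Fosl1 read -0.65 ± 0.28 (adjusted p = 0.371) and did not pass with the block (0.0691).

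Fosb, the remaining FOS member, was dim: its means of 4.43 ± 0.15 and 4.18 ± 0.13 (SD, n = 3) lay below the array medians of 5.49 to 5.56. It read 4.32, 4.37 and 4.61 in shControl and 4.04, 4.30 and 4.19 in shAtoh8. The groups were 0.019 apart, and the difference of -0.25 ± 0.11 (SE) did not pass (limma adjusted p = 0.381, and 0.244 with the block).

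The JUN genes Jun and Junb had different values, though the difference between them was not tested. Jun read 8.64, 9.01 and 9.29 in shControl and 8.99, 8.87 and 9.35 in shAtoh8, so the groups overlapped over most of their range. Its log2 fold change was 0.089 ± 0.19 (SE) with a limma adjusted p of 0.913. Within replicates 1, 2 and 3 it was 0.35, -0.14 and 0.060, and the other probe set gave 0.085 ± 0.12 (adjusted p = 0.849). Leaving out shControl replicate 1 or shAtoh8 replicate 3 turned the sign of Jun (-0.082 and -0.051).

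Junb, a JUN protein with weaker activating power than JUN on many promoters, was lower in all 3 replicates by unequal amounts. Its signals were 10.14, 10.39 and 10.82 in shControl and 9.87, 9.29 and 10.43 in shAtoh8, and the highest shAtoh8 array lay above 2 of the control arrays. The log2 fold change of -0.58 ± 0.29 (SE) did not pass (limma adjusted p = 0.456, and 0.132 with the block). Replicate 2 gave -1.10, against -0.26 and -0.39 in replicates 1 and 3. The fold change was -0.30 without shAtoh8 replicate 2, the array with the largest difference between the actin probe sets at the 3' and 5' ends, and its part in the result was not otherwise tested.

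Atf3, a stress-induced ATF/CREB family member that can dimerise with JUN and often represses, was also lower in all 3 replicates. It read 7.49, 7.76 and 8.38 in shControl and 7.14, 7.53 and 7.46 in shAtoh8. The groups overlapped at shAtoh8 replicate 2, which lay above shControl replicate 1. The difference was -0.50 ± 0.23 (SE), with a limma adjusted p of 0.399 and of 0.134 with the block. Replicate 3 gave -0.92, against -0.35 and -0.23 in replicates 1 and 2, and the value was -0.25 without shControl replicate 3.

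Maff encodes a small MAF protein, which has a zipper but no activating domain and pairs with itself or with cap'n'collar factors such as NRF2. The signals were 9.44, 9.82 and 9.87 in shControl and 8.67, 9.10 and 8.72 in shAtoh8. All 3 control arrays lay above all 3 shAtoh8 arrays, with 0.34 between the nearest. Group means of 9.71 ± 0.24 and 8.83 ± 0.23 (SD, n = 3) gave a log2 fold change of -0.88 ± 0.16 (SE), which is 1.84-fold lower. Maff had the smallest limma adjusted p of the 10 genes without the block (0.0609) and passed with it (0.0261). Its differences within replicates 1, 2 and 3 were -0.77, -0.72 and -1.15.

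Egr1, a zinc finger factor that reads GC-rich sites and is among the fastest genes to answer serum, had the most negative value of the 10. It read 9.20, 9.43 and 10.35 in shControl and 8.44, 8.39 and 7.82 in shAtoh8. The groups did not overlap and were 0.76 apart, but replicate 3 held the highest control array and the lowest shAtoh8 array. The log2 fold change was -1.44 ± 0.31 (SE), 2.72-fold lower, and 22 of 18193 genes had a more negative one. It did not pass in either fit (limma adjusted p = 0.0879, and 0.0731 with the block). Within replicates 1 and 2 the difference was -0.76 and -1.04, and within replicate 3 it was -2.53. Without both arrays of replicate 3 the log2 fold change was -0.90.

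The products of Ier3 and Ier5 are no AP-1 subunits. Ier3 (also called IEX-1) encodes a short-lived protein that acts on cell survival. It read 11.93, 12.32 and 12.41 in shControl and 11.44, 11.46 and 11.69 in shAtoh8. The groups did not overlap, with 0.24 between the nearest arrays. Its log2 fold change was -0.69 ± 0.14 (SE), 1.61-fold lower; the limma adjusted p was 0.0832, and 0.0309 with the block. The differences within replicates 1, 2 and 3 were -0.49, -0.86 and -0.72.

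Ier5, known for promoting the heat shock factor HSF1, was the gene that read higher in all 3 replicates on its brightest probe set. That set read 9.84, 9.75 and 9.77 in shControl and 10.20, 10.09 and 10.18 in shAtoh8. Both groups were tight, with SDs of 0.045 and 0.058, and lay 0.25 apart. The log2 fold change was 0.37 ± 0.078 (SE), 1.29-fold higher, and did not pass (limma adjusted p = 0.0853, and 0.0656 with the block). The other probe sets of Ier5 did not show this difference, with 0.035 ± 0.16 and 0.063 ± 0.15 (adjusted p = 0.962 and 0.925), and as the mean of its 3 probe sets Ier5 read 0.16 (adjusted p = 0.526).

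As a group, 8 of the 10 genes had a negative fold change, against 46.9% of all genes, and the median was -0.57, against 0.011 over all genes. The genes had been proposed with earlier results of these data known, so the counts and medians here are no independent sign of the group's direction. The same 8 were lower within each of the 3 replicate numbers, as were 21.5% of all genes, and Ier5 was higher within each (24.0% of all genes). Groups did not overlap for Fos, Fosb, Egr1, Maff and Ier3 on the lower side (11.4% of all genes) and for Ier5 on the higher side (12.6%). Groups that do not overlap differ the same way within every replicate number, so these genes enter both counts. The median difference within replicates 1, 2 and 3 was -0.34, -0.67 and -0.73. The block made the SE smaller for 8 of the 10 genes.

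The 10 genes varied between replicate numbers as well as between hairpins. Among the control arrays, replicate 3 was the highest for 8 of the 10 genes and replicate 1 the lowest for 8, with Fos and Ier5 as the genes whose highest control array was another. Atoh8 and Neurog3 were lowest in replicate 3 and highest in replicate 1 among the control arrays. Atoh8 read 8.75, 8.29 and 7.52 in shControl and 7.83, 7.90 and 7.37 in shAtoh8 (log2 fold change -0.49 ± 0.30 SE, limma adjusted p = 0.573, and 0.157 with the block), so the knockdown itself did not pass the test. Neurog3 read 7.45, 6.64 and 5.79 in shControl and 6.78, 6.06 and 5.33 in shAtoh8 on its brighter probe set (adjusted p = 0.706, and 0.0330 with the block), while its other probe set had a positive fold change (0.18 ± 0.17 SE). The part of these levels in the signals of the 10 genes was not tested.

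Without both arrays of replicate 2, Fos, Maff and Ier3 passed with the block (limma adjusted p = 0.0139, 0.0129 and 0.0370) and Fosl1 did not (0.0797). Without both arrays of replicate 1 or of replicate 3, none of the 10 passed, nor did any gene of the 18193. With 1 array left out and no block, none of the 10 passed in any of the 6 fits. In those fits Fos ranged from -0.97 to -0.70, Maff from -1.02 to -0.80, Ier3 from -0.83 to -0.59, Egr1 from -1.67 to -1.10 and Ier5 from 0.35 to 0.40. Fosl1 ranged more widely, between -0.76 (shControl replicate 1 left out) and -0.34 (shControl replicate 3 left out).

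**Figure D2:**
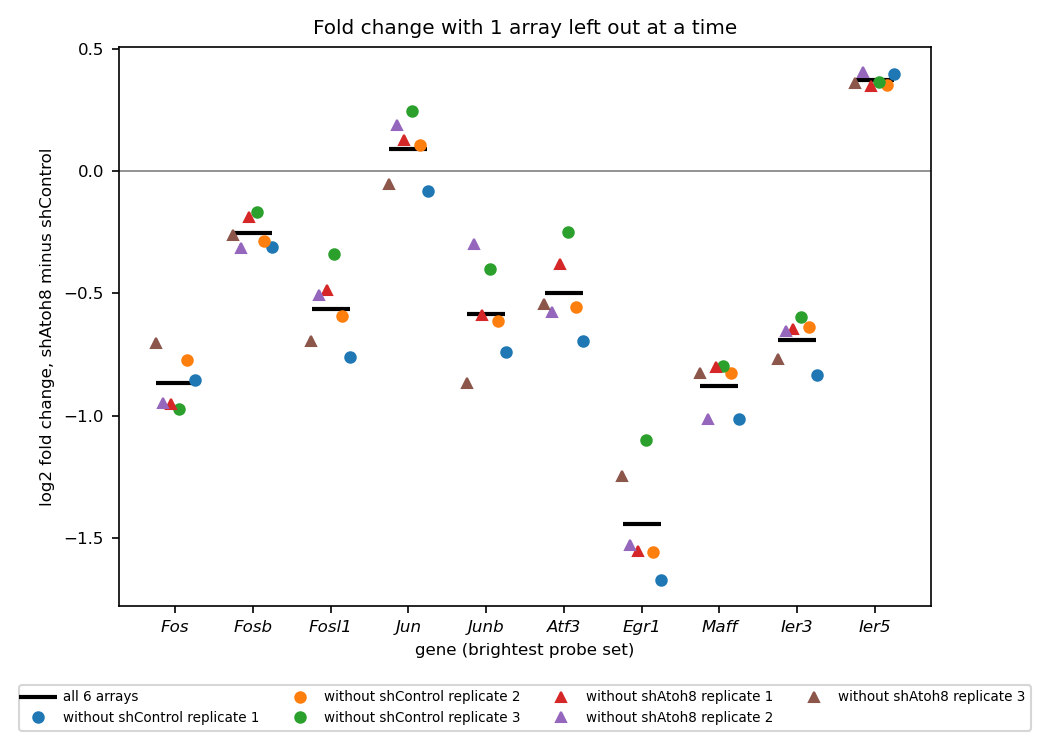
Log2 fold change (vertical axis, shAtoh8 minus shControl) of the brightest probe set of each gene with all 6 arrays (black bars) and with each array left out in turn (circles for shControl arrays, triangles for shAtoh8 arrays). The sign was the same in every fit for 9 genes, and Jun ranged from -0.082 to 0.24.

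The nearest neighbours of a gene over the 6 arrays were found by the root mean square distance between signals centred on each gene's mean. Fos was nearest to Tab2 (distance 0.105, log2 fold change -0.73), Cfl2 (0.105, -0.87) and Gbe1 (0.106, -0.85), which encode a kinase adaptor, an actin-severing cofilin and the glycogen branching enzyme. Maff was nearest to Birc3, an inhibitor of apoptosis (0.065, -0.82), the growth factor gene Pdgfb (0.096, -0.88) and the sphingomyelin synthase gene Sgms2 (0.098, -0.99). Ier5 was nearest to Slc66a1 (0.026, 0.38), Cybc1 (0.032, 0.36) and the proteasome subunit gene Psmc2 (0.032, 0.35). Within the 10 genes, Fosl1 and Atf3 were the closest pair (0.14) and Egr1 and Ier5 the farthest apart (1.00). These distances describe 6 arrays and carry no test.

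The other genes of the pathway were read from 5 lists drawn up from background knowledge, with earlier results of these data known. Counts within these lists are therefore no independent sign of the pathway's direction. Of the other AP-1 and small Maf subunits, 11 of 12 were measured, and none passed (0 by limma in either fit, against 4 at an unadjusted p under 0.05, 3 lower and 1 higher). Of all genes, 1.15% passed without the block and 4.67% with it, and 17.5% had an unadjusted limma p under 0.05 (8.82% lower and 8.72% higher). Jdp2, a zipper protein that represses as a partner of JUN, had the smallest p of this list without the block. It read 9.52, 9.35 and 10.25 in shControl and 8.70, 9.05 and 9.09 in shAtoh8, and the groups did not overlap (log2 fold change -0.76 ± 0.23 SE, limma adjusted p = 0.199, and 0.0677 with the block). The other probe set of Jdp2 read -0.11 (0.690 and 0.645). Fosl2, the FOS member not among the 10 genes, had the smallest p with the block and read -0.38 ± 0.13 (0.246 and 0.0631), with -0.40 on its other probe set, and Jund, the JUN member not among them, -0.032 ± 0.086 (0.932 and 0.907). The list median was -0.032.

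Of 30 other immediate early genes, all measured, Tiparp fell in the fit without the block. Tiparp, an ADP-ribosyltransferase, read 9.05, 9.15 and 9.15 in shControl and 8.34, 8.58 and 8.38 in shAtoh8. The groups did not overlap. Its log2 fold change was -0.68 ± 0.093 (SE; limma adjusted p = 0.0357, and 0.0258 with the block), and its other probe sets read -0.78 and -0.57. The call was lost without any 1 of the arrays other than shAtoh8 replicate 2 (adjusted p between 0.0932 and 0.153), and held when shAtoh8 replicate 2 was left out (0.0421). With the block 3 more passed lower, the growth factor-induced repressor Klf10 (-0.59 ± 0.11, 0.0409), the proto-oncogene Myc (-1.01 ± 0.30, 0.0384) and the small GTPase gene Gem (-0.66 ± 0.35, 0.0292). The kinase gene Plk2 passed higher (0.53 ± 0.17, 0.0385), and its other probe set, a dim one, read 0.020 (0.937). The call of Tiparp without the block was against 0.638% of all genes called lower, and the 4 lower and 1 higher with it were against 2.75% and 1.92%. The median of this list was -0.075, with 17 members negative and 13 positive.

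Among upstream factors and MAP kinases, 25 of 33 had a probe set of their own, with a median of -0.071. At an unadjusted limma p under 0.05 there were 9, 5 lower and 4 higher, beside 17.5% of all genes (8.82% lower and 8.72% higher). None passed without the block (0 by limma), where 1.15% of all genes did. Rps6ka5, a kinase downstream of the MAP kinases that phosphorylates CREB, passed lower with it, the only 1 of the 25, while 4.67% of all genes passed in that fit (2.75% lower). It read 6.63, 6.44 and 5.72 in shControl and 5.42, 5.63 and 4.68 in shAtoh8 (log2 fold change -1.02 ± 0.31 SE, limma adjusted p = 0.188, and 0.0180 with the block). Both of its other probe sets were lower as well, by -0.39 and -0.68, and did not pass.

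Known AP-1 targets were measured for 24 of 27 entries, with 19 negative, 5 positive and a median of -0.16. At an unadjusted limma p under 0.05 there were 6, all 6 lower, where 8.82% of all genes were lower at that p. None passed without the block (0 by limma), where 1.15% of all genes did. With it 5 passed lower, beside 2.75% of all genes: the protease inhibitor Timp1 (-0.48 ± 0.11 SE, limma adjusted p = 0.0458), the growth factor Vegfa (-0.77 ± 0.16, 0.0293, with 0.0550 for its other probe set, at -0.84), the chemokine Ccl2 (-1.27 ± 0.38, 0.0292), the matrix protease Mmp3 (-1.03 ± 0.57, 0.0265) and the integrin subunit Itga5 (-0.46 ± 0.28, 0.0482). Of the 3 other probe sets of Itga5, 1 read lower (-0.43) and 2 dim ones read higher (0.11 and 0.063). Mmp3 shows how far replicate numbers differed, with 7.10, 7.66 and 9.19 in shControl and 6.36, 6.68 and 7.82 in shAtoh8. Of 12 proteins that bind AU-rich elements or decay transcripts, 11 were measured and none passed (0 by limma in either fit). Of all genes, 1.15% passed without the block and 4.67% with it. At an unadjusted limma p under 0.05, 2 of the list were lower, beside 8.82% of all genes. Zfp36l2, which promotes decay of such transcripts, had the smallest p without the block (-0.39 ± 0.13, adjusted p = 0.215, and 0.121 with the block), and its other probe sets read -0.021 and -0.48. With the block the smallest p was that of Cnot7, a deadenylase subunit (0.32 ± 0.17, adjusted p = 0.496, and 0.0926 with the block), whose other probe sets both read 0.18. Ptgs2 and Zfp36 stand in 2 lists each.

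**Figure D3:**
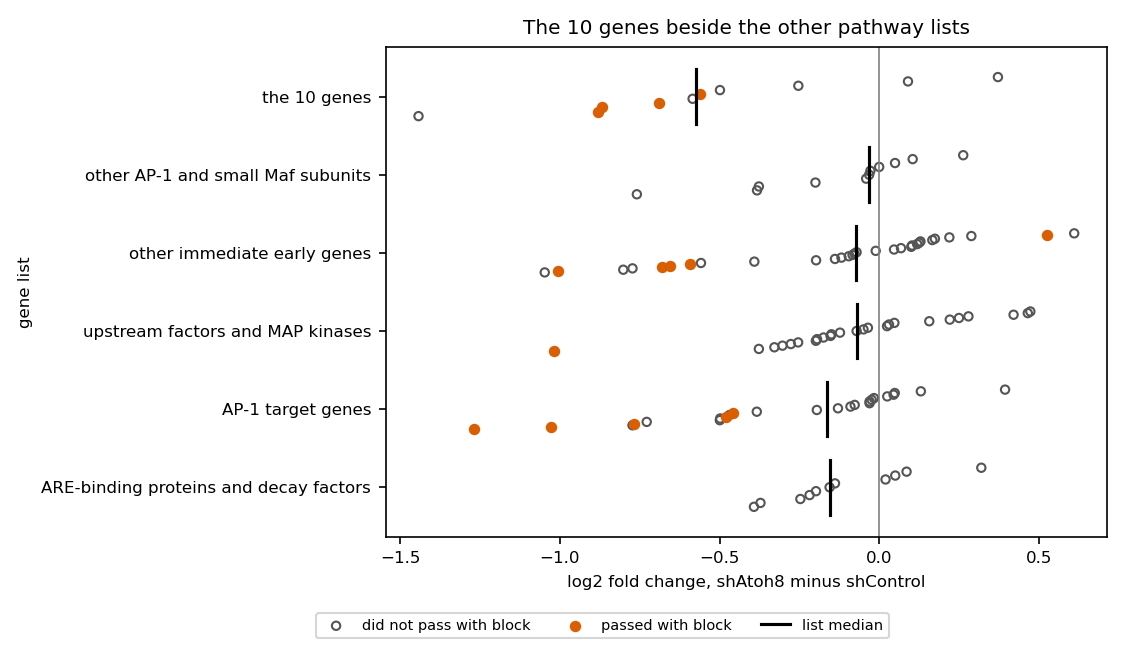
Log2 fold change (horizontal axis, shAtoh8 minus shControl) of the brightest probe set of each gene in the 10-gene group and in the 5 other lists, 1 point per gene. Filled points passed limma with the replicate block, and black lines are list medians, at -0.57 for the 10 genes and between -0.16 and -0.032 for the other lists.

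Of 12 duct markers, 10 had a probe set of their own, with mean signals of 9.51 to 9.64 in shControl and 9.40 to 9.44 in shAtoh8. The keratins Krt8 and Krt18, the brightest of them, had control means of 13.85 and 13.79, and the dimmest had 4.19. Of these 10, 7 were negative and 3 positive, with a median of -0.063. Groups did not overlap for 3 on the lower side and 1 on the higher (11.4% and 12.6% of all genes). Epcam, an epithelial adhesion gene, passed lower with the block (log2 fold change -0.73 ± 0.19 SE, limma adjusted p = 0.0463, and 0.145 without it), and its other probe set read 0.048. It was the only 1 of the 10 to pass, where 2.75% of all genes were called lower with the block. Mean signals of the fibroblast markers were 4.86 to 4.95 in shControl and 4.83 to 4.87 in shAtoh8, those of the endothelial markers 4.12 to 4.20 and 4.16 to 4.26, those of the acinar markers 5.42 to 5.53 and 5.58 to 5.59, and those of the leukocyte markers 6.42 to 6.46 and 6.42 to 6.51. Single markers were brighter than these means, with control means up to 8.45 among the acinar markers and 11.70 for Cd14 among the leukocyte markers. Of 7 leukocyte markers measured, 3 were negative and 4 positive, and Lyz2, lysozyme, passed higher (0.75 ± 0.12, limma adjusted p = 0.0499, and 0.0189 with the block), where 0.517% of all genes were called higher without the block and 1.92% with it. The call without the block was lost without any 1 array (adjusted p between 0.0848 and 0.186). Cd14 and Cd68, which mark monocytes and macrophages, read -0.36 ± 0.17 (adjusted p = 0.426, and 0.104 with the block) and -0.36 ± 0.25 (0.622 and 0.178). Each was lower in all 3 replicates, as were 21.5% of all genes. The leukocyte markers other than Cd14, Cd68 and Lyz2, further macrophage markers among them, read between -0.039 and 0.11. The part of the leukocyte markers in the results was not tested. The difference between the actin probe sets at the 3' and 5' ends was 0.35 in shAtoh8 replicate 2 and 0.11 to 0.20 on the other arrays, and the hybridisation spikes there read 9.05, against 9.44 to 9.69.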

How the data were processed

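Expression was measured on 6 arrays from biotin-labelled cRNA. The deposited table holds a log2 signal for each probe set, made by RMA in the affy package, per the submitters' processing notes, without versions. RMA corrects background, quantile-normalises and summarises probes, so a shift of most genes one way would have been removed. Precision is limited by how few arrays there are.

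Of 45101 probe sets, 64 controls were left out. Names came from the platform annotation: 34945 probe sets had 1 symbol, 932 several and 9160 none, and the latter named no gene. limma 3.58.1 (R 4.3.3) fitted shAtoh8 against shControl (lmFit, eBayes, two-sided, Benjamini-Hochberg over 45037 probe sets, threshold 0.05). The fit was also run on simulated data, with normal noise drawn separately for each probe set. That run was a check of the code and carries no weight for the calls reported here. The replicate number as a block was an alternative. Deviations from group means correlated at 0.407, 0.187 and 0.433 between arrays of the same number and at -0.351 to 0.0292 otherwise, so the numbers were taken to pair the arrays.

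The 10 genes and the lists were chosen with earlier results of these data known. Named genes were all 10, Atoh8, Neurog3, list members that passed in either fit or otherwise the one with the smallest p without the block, and the 3 nearest genes of Fos, Maff and Ier5. Fosl2, Jund, Cnot7, Krt8, Krt18, Epcam, Lyz2, Cd14 and Cd68 were named after their values were seen. Alternatives covered centring, normalization, brightness, variance model, array weights, choice of probe set, threshold and arrays left out.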

Additional observations from a re-analysis of the deposited data

How the results depend on the processing

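Of 189 values of the 10 genes under 19 alternatives, 163 kept their direction and their side of the threshold, 23 gained a call and 3 changed sign, all of Jun (-0.082 without shControl replicate 1, -0.051 without shAtoh8 replicate 3, and -0.042 without both arrays of replicate 1 in the block fit, within a range up to 0.24 with arrays left out). The number of the 10 genes called, 0 without the block, was 4 with the replicate block, 4 with 1 probe set per gene and adjustment over genes, 3 with probe sets averaged per gene, 2 with array weights, 1 with brighter probe sets alone, 1 with the trend and robust variance model, and 5 at an adjusted p under 0.1. With arrays left out it was 0 to 3. Over all 18193 genes the count was 210 (1.15%), and 849 (4.67%) with the replicate block. It was 557 with 1 probe set per gene, 459 with mean probe sets and 339 with array weights. A trended and robust variance fit called 264. Brighter probe sets alone gave 324, out of fewer genes. At the looser threshold the count was 691 (3.80%), and with 1 array left out it was 0 to 115. In the block fit it was 0, 962 and 0 without both arrays of replicate 1, 2 or 3. Whether the share of the 10 genes called exceeds that of all genes was not tested for any of these settings. The fits with 1 probe set per gene and with mean probe sets adjust over 18193 values. The fit with brighter probe sets alone also adjusts over fewer than 45037. Apart from the looser threshold, the cause of the changes in count was not tested. Fosb had no value with brighter probe sets alone. Among the other genes named, Jund turned positive without shControl replicate 2 (0.0067, with -0.032 from all arrays) and without both arrays of replicate 3 (0.0098), with a lowest value of -0.097 with arrays left out. Neurog3 turned positive when quantile-normalised again (0.18) and without shControl replicate 1 (0.27), shControl replicate 2 (0.25), shAtoh8 replicate 1 (0.059) or both arrays of replicate 1 (0.15), where its other probe set was the brighter one; its lowest value was -0.99, without shControl replicate 3. The median of the 10 genes ranged from -0.75 to -0.37 with arrays left out.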
